A study of Homo sapiens with 21 samples.

Results

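The genes described here are 49 interferon-stimulated genes and nucleic acid sensors of SK-N-BE(2), a human neuroblastoma cell line with amplified MYCN. They were picked by gene symbol from a list of members, out of 60728 rows in the series' expression table, and each symbol matched 1 row. Polyadenylated RNA was sequenced from 7 conditions with 3 libraries each: Control, which received a non-silencing hairpin, and 6 conditions that received lentiviral short hairpin RNAs (shRNAs). Of the latter, shARID1A.2 and shARID1A.4 are named for ARID1A, the pair shARID1B.2 and shARID1B.3 for ARID1B, and the pair shARID1A/B.2.3 and shARID1A/B.4.2 for both. ARID1A and ARID1B are alternative DNA-binding subunits of BAF, a chromatin remodelling complex that slides and evicts nucleosomes. All conditions, Control included, had been transduced with lentivirus. The labels do not say whether the 3 libraries of a condition came from separate transductions, so that p-values measure only the spread between these libraries. Values are normalised read counts, that is, reads of a gene divided by 1 scaling factor for each library. A gene was tested where a filter on low values kept it, which held for 18584 genes and for 42 of the 49 members, and it is called where the Benjamini-Hochberg adjusted p of limma's moderated test on log2(value + 1) was under 0.05.

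The levels of the silenced genes did not follow the labels, and labels are used below as written. ARID1A (chr1:26693236-26782110, plus strand) stood at 6097, 6374 and 6463 in Control, 2169, 2159.9 and 2109 in shARID1A.2, 2289, 2157 and 2284 in shARID1A.4, 1962, 1882 and 1916 in shARID1B.2, 2507, 2479.9 and 2449.7 in shARID1B.3, 5510.3, 5752 and 5714 in shARID1A/B.2.3, and 5589, 5352 and 5379 in shARID1A/B.4.2. It was low under both single labels, shARID1A and shARID1B, with log2 differences from Control of -1.56, -1.49, -1.72 and -1.35, and close to Control in those labelled shARID1A/B (-0.16 and -0.21). ARID1B (chr6:156776020-157210779, plus strand) stood at 5793, 5804 and 5791 in Control, 2252, 2248 and 2224 in shARID1A.2, 3065, 3109.7 and 3126 in shARID1A.4, 5056, 4913 and 5043 in shARID1B.2, 6182, 6038 and 6053 in shARID1B.3, 2540.5, 2651 and 2607 in shARID1A/B.2.3, and 1886, 1881 and 1955 in shARID1A/B.4.2. It was low in the libraries labelled shARID1A (-1.37 and -0.90) and shARID1A/B (-1.16 and -1.60), and near Control in those labelled shARID1B (-0.21 and 0.072). Hence both genes were low in the libraries labelled shARID1A, ARID1A alone was lowered by more than 1 on the log2 scale in those labelled shARID1B, and ARID1B alone in those labelled shARID1A/B.

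**Figure D1:**
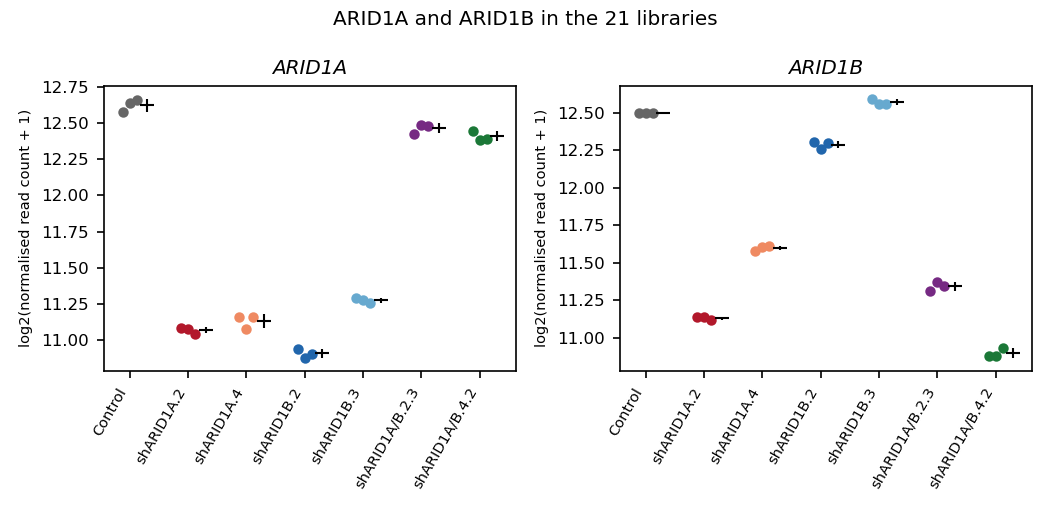
ARID1A and ARID1B in each of the 21 libraries, as log2(normalised read count + 1) on the vertical axis, by labelled condition; points are libraries and bars are mean ± SD (n = 3). The libraries labelled shARID1A are low in both genes, those labelled shARID1B in ARID1A and those labelled shARID1A/B in ARID1B.

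Cells detect viral or misplaced nucleic acid with sensors in the cytosol and endosome: RIG-I, MDA5 and LGP2 bind double-stranded RNA, cGAS and IFI16 bind DNA, and cGAS signals through STING. These pathways activate IRF3 and IRF7, which switch on type I interferon genes. Secreted interferon binds the IFNAR1 and IFNAR2 receptor and activates the kinases JAK1 and TYK2 and a complex that holds STAT2 and IRF9, which binds interferon-stimulated response elements in promoters. The genes that respond encode antiviral proteins that degrade RNA, block translation or hinder virus entry, and they include the sensors and signalling factors themselves, so that many members are parts of the loop as well as its products. Many members are also transcribed at a low level without interferon.

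The 21 libraries held 27954334 to 41077638 reads, with a median of 34973565. Of 11 markers of adrenergic neuroblastoma all passed the filter in these cells, with a Control mean of 122676 normalised reads for MYCN. Of 9 leukocyte markers only PTPRC, CD14 and CD68 passed it, and MS4A1 and NKG7 were at 0 reads in all 21 libraries. The sum of the 9 leukocyte markers was 451 to 485 in Control, mostly PTPRC, against 102 to 116 in shARID1A.4 and 334 to 352 in shARID1B.3, with the other conditions between 111 and 241. This sum moves with condition, and its part in the results was not tested. In bulk RNA, fewer cells that express a gene and less RNA per cell cannot be told apart.

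The promoters below are shown because the members' levels differed between conditions that carry hairpins with the same label, in several directions. Sequences are 300 bases from RefSeq (GRCh38.p14), from 250 bases before to 50 bases from the annotated start, 5′ to 3′ on the strand of the gene. Capitals mark matches, on either strand, to the core of the interferon-stimulated response element, GAAANNGAAA, where N is any base. ISG15, OAS3, IFITM3 and PARP14 had their lowest means in shARID1A.2 and shARID1A/B.4.2. OAS3 was called lower than Control in all 6 conditions and IFITM3 in all but shARID1B.2. ISG15 and PARP14 were also called lower in shARID1B.2 and shARID1B.3. IFIT1 and BST2 were high in shARID1A.2 and shARID1B.2, BST2 also in shARID1A/B.4.2 and IFIT1, less, in shARID1A/B.2.3. ISG20 was high in shARID1A.4 and shARID1A/B.2.3.
ISG15, chr1:1013247-1013546 (plus strand): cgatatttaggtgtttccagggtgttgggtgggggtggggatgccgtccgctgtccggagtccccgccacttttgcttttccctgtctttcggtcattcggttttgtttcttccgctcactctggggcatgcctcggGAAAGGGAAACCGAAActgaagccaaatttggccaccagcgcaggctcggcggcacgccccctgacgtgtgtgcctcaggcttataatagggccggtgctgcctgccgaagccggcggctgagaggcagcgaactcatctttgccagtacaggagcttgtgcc
OAS3, chr12:112938224-112938523 (plus strand): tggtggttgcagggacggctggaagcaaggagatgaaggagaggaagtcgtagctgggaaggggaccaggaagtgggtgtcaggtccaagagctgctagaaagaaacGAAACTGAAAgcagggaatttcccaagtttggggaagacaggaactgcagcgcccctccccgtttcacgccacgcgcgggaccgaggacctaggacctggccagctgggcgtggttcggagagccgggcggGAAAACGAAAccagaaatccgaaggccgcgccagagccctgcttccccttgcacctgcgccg
IFITM3, chr11:320811-321110 (minus strand): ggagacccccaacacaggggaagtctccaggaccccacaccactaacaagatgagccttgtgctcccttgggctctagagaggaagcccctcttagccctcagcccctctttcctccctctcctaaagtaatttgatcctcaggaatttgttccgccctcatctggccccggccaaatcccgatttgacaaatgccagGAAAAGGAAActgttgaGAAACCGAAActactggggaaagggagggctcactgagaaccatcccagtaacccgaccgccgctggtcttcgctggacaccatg
PARP14, chr3:122680589-122680888 (plus strand): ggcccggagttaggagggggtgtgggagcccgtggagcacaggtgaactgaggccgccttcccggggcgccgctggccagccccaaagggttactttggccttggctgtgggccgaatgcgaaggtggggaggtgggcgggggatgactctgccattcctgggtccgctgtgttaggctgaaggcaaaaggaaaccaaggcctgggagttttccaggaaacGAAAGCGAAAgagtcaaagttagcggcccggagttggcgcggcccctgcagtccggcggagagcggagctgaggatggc
IFIT1, chr10:89392373-89392672 (plus strand): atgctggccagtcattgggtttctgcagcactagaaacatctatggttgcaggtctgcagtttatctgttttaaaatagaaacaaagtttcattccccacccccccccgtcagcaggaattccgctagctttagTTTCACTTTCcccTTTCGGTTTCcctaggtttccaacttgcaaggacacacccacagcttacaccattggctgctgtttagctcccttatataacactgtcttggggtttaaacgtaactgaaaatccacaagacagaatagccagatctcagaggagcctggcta
BST2, chr19:17405581-17405880 (minus strand): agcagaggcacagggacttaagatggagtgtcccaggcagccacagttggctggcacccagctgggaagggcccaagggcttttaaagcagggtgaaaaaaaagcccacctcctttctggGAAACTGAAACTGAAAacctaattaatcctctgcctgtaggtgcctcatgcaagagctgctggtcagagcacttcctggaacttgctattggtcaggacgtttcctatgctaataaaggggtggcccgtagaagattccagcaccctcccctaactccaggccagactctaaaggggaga
ISG20, chr15:88638766-88639065 (plus strand): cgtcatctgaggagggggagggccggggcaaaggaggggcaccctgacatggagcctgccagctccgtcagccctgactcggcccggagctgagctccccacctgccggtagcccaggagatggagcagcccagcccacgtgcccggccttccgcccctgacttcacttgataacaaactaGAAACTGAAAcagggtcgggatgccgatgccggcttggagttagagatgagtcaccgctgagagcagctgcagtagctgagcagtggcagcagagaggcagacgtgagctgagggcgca

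All 7 windows held the motif, once in PARP14 and ISG20 and at 2 positions in the others, which overlap in ISG15 and BST2. ADAR, STAT2 and IRF9 also differed between conditions of a label, and their windows, not printed, held no match. The printed windows are therefore no measure of how common the motif is among members that differed. RefSeq promoter entries were found for 36 of the 49 members, and 22 of the 36 (61.1%) had the motif in at least 1 entry, against 4.38% of the 27305 gene symbols in the table and 3.57% of its 35116 promoter entries. The gamma-activated site, TTCNNNGAA, which reads the same on both strands, was in the promoters of 10 of the 36 (27.8%) and of 9.38% of all symbols. It overlapped a match to the first motif in BST2, IFI27, IFITM1 and 1 of the MX1 entries. No match to GAAANNGAAA stood in the windows of ADAR, IFI16, IRF1, IRF9, STAT2, OAS1, CMPK2, SP110, IFI35, TRIM25, SAMHD1, IFNAR1, HERC6 or XAF1. IFNAR2, IRF2, IRF3, IRF7, DHX58, OAS2, OASL, CGAS, STING1, MX2, IFIT2, IFITM2 and USP18 had no entry.

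**Figure D2:**
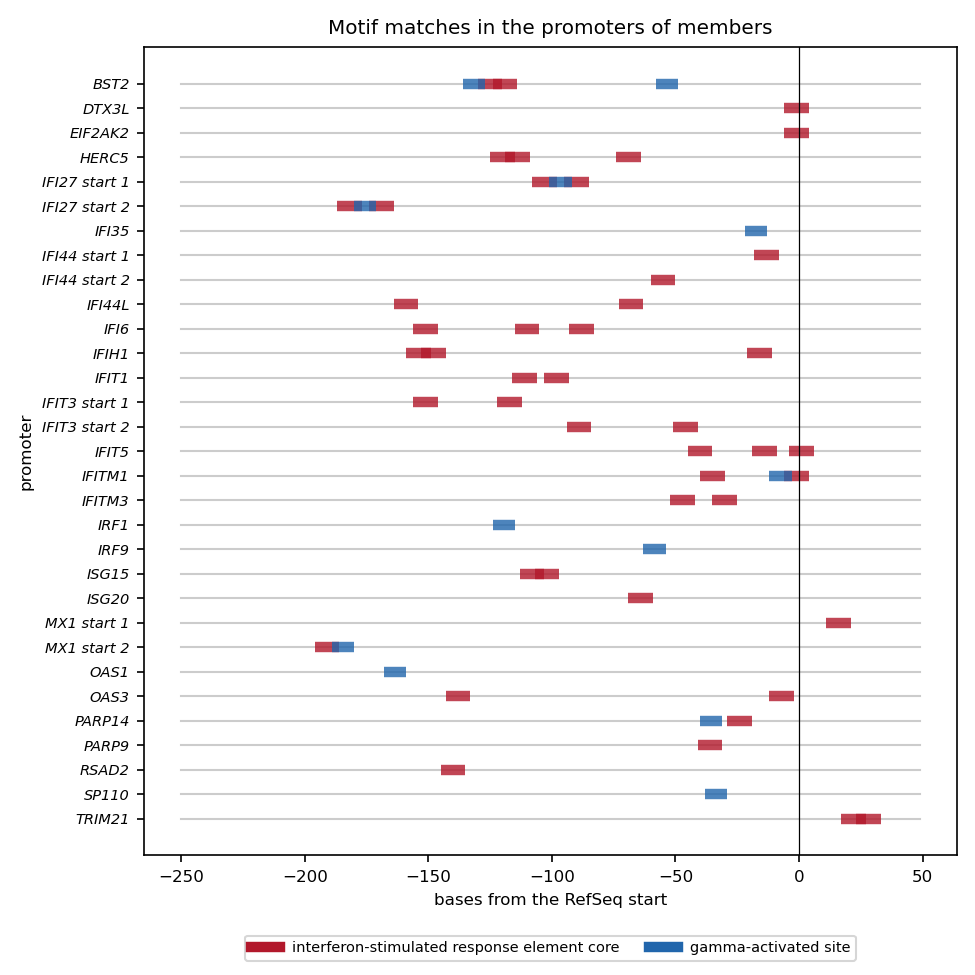
Positions of motif matches in the promoters of members that hold at least 1 match; the horizontal axis gives bases from the RefSeq start, grey lines are the 300-base windows, red bars the interferon-stimulated response element core and blue bars the gamma-activated site. Members with several annotated starts have a line for each, and most red bars lie before the start.

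In Control the members spanned a wide range of levels per kilobase of merged GENCODE exons. ADAR, which edits adenosine in double-stranded RNA, was the highest at 2194 normalised reads per kilobase, followed by the DNA sensor IFI16 at 1140.2, IFIT5 at 595 and the kinase EIF2AK2 (PKR) at 511. STAT2 stood at 134 and IFITM3 at 167. Other members were lower, among them ISG15 at 32.3, MX1 at 3.36 and MX2 at 0.253 normalised reads per kilobase. OASL was at 0 in all 3 Control libraries.

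Against Control, members were called in every condition, as were large shares of all genes. In shARID1A.2, 10 of 42 members were higher and 27 lower (23.8% and 64.3%), against 37.9% and 38.2% of all genes. In shARID1A.4, 11 were higher and 20 lower, against 37.0% and 36.6% of all genes. In shARID1B.2 the counts were 11 and 17 against 31.6% and 34.0%, and in shARID1B.3 5 and 28 against 31.9% and 32.0%. In shARID1A/B.2.3, 15 members were higher and 14 lower against 35.2% and 34.0% of all genes, and in shARID1A/B.4.2 5 and 26 against 35.1% and 36.1%. The median log2 difference of the 42 members was -0.50, -0.23, -0.12, -0.57, 0.018 and -0.51 in these 6 conditions in the same order, while the median over all genes was between 0.0098 and 0.018. With scaling to total reads the split in shARID1B.2 was 14 higher and 12 lower (53.8% of calls higher, against 63.0% of calls over all genes). With upper-quartile scaling it was 13 and 12 (52%, against 61.2%). The 6 comparisons share the same 3 Control libraries.

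A call with a log2 difference of at least 1 in size was made for 17 members in shARID1A.2 (40.5%), against 24.8% of all genes. The count was 16 in shARID1A.4 (38.1%, against 21.4%), 6 in shARID1B.2 (14.3%, against 12.0%) and 12 in shARID1B.3 (28.6%, against 11.8%). It was 7 in shARID1A/B.2.3 (16.7%, against 16.1%) and 18 in shARID1A/B.4.2 (42.9%, against 18.4%). In shARID1A/B.4.2 17 of these 18 were lower, and in shARID1B.3 11 of 12, whereas in shARID1A/B.2.3 5 of 7 were higher. The counts include HERC5, HERC6, IFI44L and MX2 wherever these were called at that size. These members passed the filter through conditions in which they were high, so that their part in the counts is a description. The same holds for the other counts of calls against Control and for those within labels. In all 6 conditions IFI16, OAS3 and TRIM21 were called lower and IFNAR2 was called higher. The share of all genes called alike in all 6 was not counted, and the 6 comparisons share Control. The IFNAR2 call in shARID1A/B.2.3 was lost without 1 library.

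**Figure D3:**
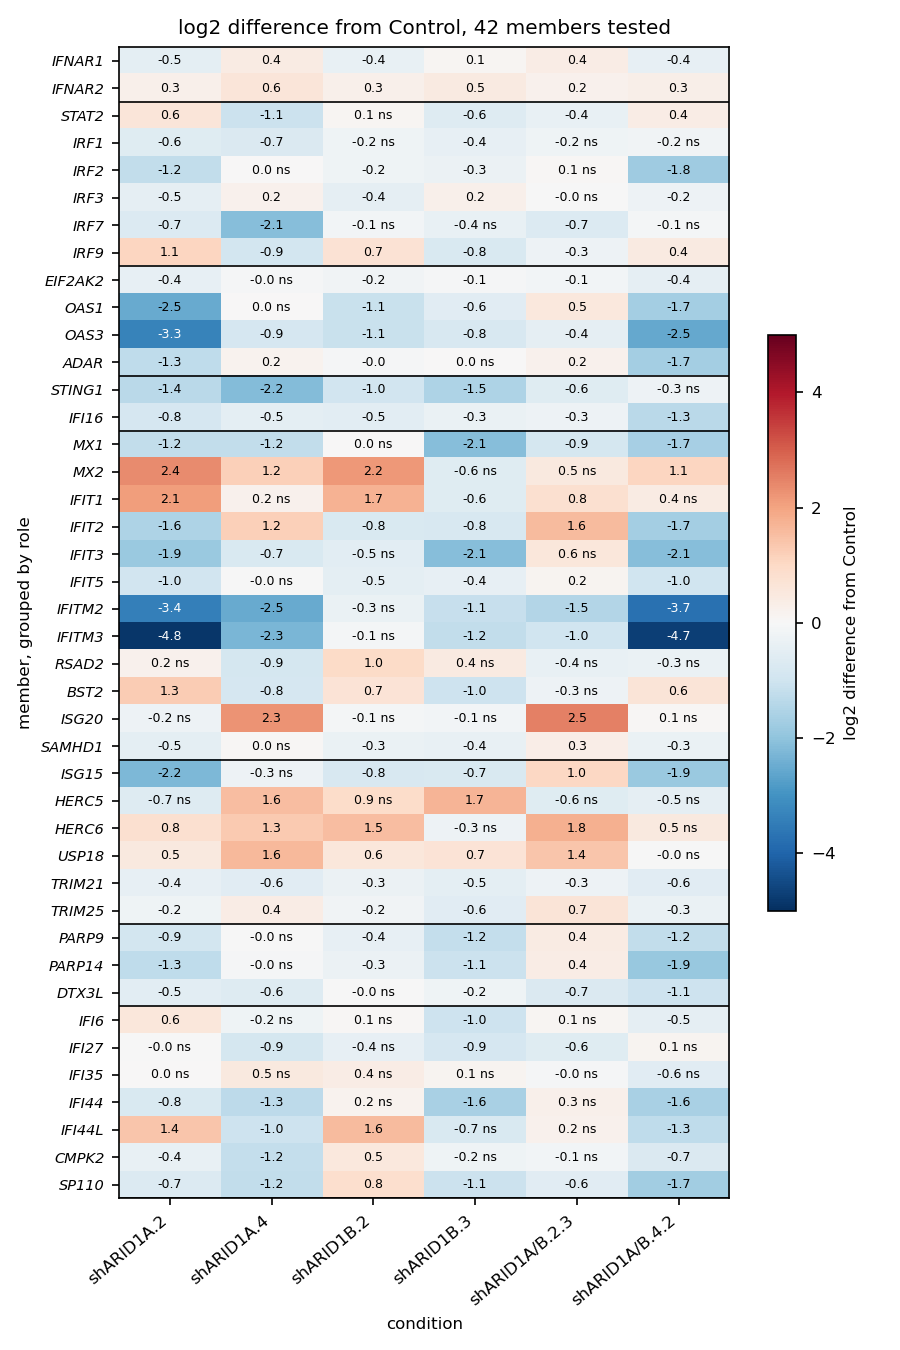
log2 difference from Control, as colour and number, of the 42 members tested (rows, grouped by role) in the 6 hairpin conditions (columns); ns marks values that were not called at an adjusted p under 0.05. The columns of shARID1A.2 and shARID1A/B.4.2 hold the lowest values, in IFITM3 (-4.85 and -4.71), while ISG20 is high in the columns of shARID1A.4 and shARID1A/B.2.3.

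The receptor subunits changed by less than 1 on the log2 scale. IFNAR1 (chr21:33324477-33359862, plus strand) was highest in shARID1A.4 and shARID1A/B.2.3 (log2 difference 0.39 and 0.39) and lowest in shARID1A.2, shARID1A/B.4.2 and shARID1B.2 (-0.48, -0.41 and -0.39). IFNAR2 (chr21:33229901-33265675, plus strand) rose in all 6 conditions, by 0.23 in shARID1A/B.2.3 to 0.59 (SE 0.07, adjusted p = 4.07e-08) in shARID1A.4. In the annotation 44.2% of its exon bases are shared with a read-through gene on the same strand, so that its count is uncertain. Calls that ended when 1 library was left out are given with each such library, left out in turn, and the adjusted p without it. The IFNAR2 call in shARID1A/B.2.3 was lost without shARID1A/B.2.3 replicate 2 (adjusted p = 0.0653). That for IFNAR1 in shARID1B.3 was lost without Control replicate 2 or 3 or shARID1B.3 replicate 3 (adjusted p = 0.0624 to 0.121).

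The signalling factors split by condition. STAT2 (chr12:56341597-56360155, minus strand), the partner of IRF9 in the interferon-activated complex, stood at 787, 845 and 824 in Control, 1281, 1215 and 1284 in shARID1A.2, 405, 396 and 359 in shARID1A.4, 832, 909.9 and 865 in shARID1B.2, 511, 555 and 517 in shARID1B.3, 583, 679 and 633 in shARID1A/B.2.3, and 1073, 1077 and 1019 in shARID1A/B.4.2. It rose in shARID1A.2 (0.62, SE 0.055, adjusted p = 2.54e-10) and fell in shARID1A.4 (-1.08, SE 0.055, adjusted p = 5.01e-15), so that the 2 conditions labelled shARID1A lay at the top and bottom of the 7. It was also called in shARID1A/B.4.2 (0.37), shARID1A/B.2.3 (-0.37) and shARID1B.3 (-0.63). IRF9 (chr14:24161053-24166565, plus strand), the DNA-binding part of that complex, stood at 258, 285 and 254 in Control, 578, 528 and 559 in shARID1A.2, 139.8, 128 and 155 in shARID1A.4, 429, 456 and 422 in shARID1B.2, 124, 177 and 174 in shARID1B.3, 213, 235 and 212 in shARID1A/B.2.3, and 362, 356 and 362 in shARID1A/B.4.2. It was high in shARID1A.2 (1.06, SE 0.10, adjusted p = 5.47e-10), shARID1B.2 (0.71) and shARID1A/B.4.2 (0.44) and low in shARID1A.4 (-0.91, SE 0.10, adjusted p = 8.54e-09) and shARID1B.3 (-0.76). The exons of IRF9 share 48.4% of their bases with another annotated gene on the same strand. IRF2 (chr4:184387713-184474580, minus strand), which competes with IRF1 for response elements, stood at 835, 790.2 and 829 in Control, 333, 365 and 353 in shARID1A.2, 811, 848 and 821 in shARID1A.4, 714, 724 and 691 in shARID1B.2, 669.98, 655 and 685 in shARID1B.3, 846, 909.7 and 821 in shARID1A/B.2.3, and 229, 247 and 234 in shARID1A/B.4.2. Its libraries of shARID1A/B.4.2 were the lowest, those of shARID1A.2 came next (-1.79, SE 0.048, adjusted p = 1.75e-20 and -1.22, SE 0.048, adjusted p = 2.56e-17), and the next largest difference was -0.29, in shARID1B.3.

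IRF7 (chr11:612553-615999, minus strand), which drives the second wave of interferon genes, stood at 59.9, 41.4 and 53.4 in Control, 39.9, 22.7 and 33.4 in shARID1A.2, 11.7, 11.9 and 8.98 in shARID1A.4, 50.8, 46.3 and 42.7 in shARID1B.2, 40.8, 45.6 and 32.8 in shARID1B.3, 29.4, 30.2 and 35.03 in shARID1A/B.2.3, and 47.4, 46.4 and 47.8 in shARID1A/B.4.2. Only in shARID1A.4 were all its libraries below the rest, with a log2 difference of -2.14 (SE 0.21, adjusted p = 1.14e-09). It was also called lower in shARID1A.2 (-0.69) and shARID1A/B.2.3 (-0.68). IRF3, the factor first activated by the sensors, had its largest difference in shARID1A.2 (-0.45), and IRF1 ranged from -0.74 in shARID1A.4 to -0.16 in shARID1A/B.4.2, where it was not called. The call for IRF9 in shARID1A/B.2.3 (-0.27) was lost without Control replicate 2 or shARID1A/B.2.3 replicate 1 or 3 (adjusted p = 0.0552 to 0.0829). That for IRF1 in shARID1B.3 was lost without Control replicate 3 (adjusted p = 0.0733).

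Among members whose products act on double-stranded RNA, ADAR (chr1:154582057-154628013, minus strand), an editing enzyme, differed widely between conditions. It stood at 20926, 21586 and 21269 in Control, 8789.9, 8878 and 8892 in shARID1A.2, 24127, 24408 and 23692 in shARID1A.4, 20710.0, 20618 and 20507 in shARID1B.2, 20928, 21860.0 and 21584 in shARID1B.3, 24391, 24224 and 24577 in shARID1A/B.2.3, and 6598, 6559 and 6670.4 in shARID1A/B.4.2. The libraries of shARID1A.2 and shARID1A/B.4.2 lay far below the other 15, with log2 differences of -1.26 (SE 0.019, adjusted p = 9.68e-26) and -1.69 (SE 0.019, adjusted p = 8.91e-28). ADAR was slightly higher in shARID1A.4 (0.18) and shARID1A/B.2.3 (0.20). Its small difference in shARID1B.2 (-0.045) was not called without Control replicate 2 or 3 or shARID1B.2 replicate 1, 2 or 3 (adjusted p = 0.0551 to 0.165). It turned to 0.092 when libraries were scaled to total reads and to 0.074 with upper-quartile scaling.

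OAS1 (chr12:112906777-112933222, plus strand) makes the oligoadenylate that activates RNase L on binding double-stranded RNA. It stood at 110.4, 112 and 106 in Control, 14.1, 19.6 and 21.2 in shARID1A.2, 118, 117 and 101 in shARID1A.4, 56.9, 49.8 and 42.7 in shARID1B.2, 66.7, 74.1 and 80.3 in shARID1B.3, 156, 164 and 156 in shARID1A/B.2.3, and 38.3, 33.2 and 28.1 in shARID1A/B.4.2. It fell in shARID1A.2 (-2.54, SE 0.15, adjusted p = 1.64e-13), shARID1A/B.4.2 (-1.70), shARID1B.2 (-1.13) and shARID1B.3 (-0.57), and rose in shARID1A/B.2.3 (0.53). OAS3 (chr12:112938352-112973249, plus strand), the longest of the same enzyme family, stood at 1506, 1509 and 1557 in Control, 138, 161 and 151 in shARID1A.2, 889.5, 828 and 807 in shARID1A.4, 734, 688 and 699.8 in shARID1B.2, 892, 831 and 907 in shARID1B.3, 1124, 1127 and 1126 in shARID1A/B.2.3, and 252, 253 and 276 in shARID1A/B.4.2. All 18 hairpin libraries lay below the 3 of Control, and the deepest differences were again in shARID1A.2 (-3.34, SE 0.054, adjusted p = 5.51e-25) and shARID1A/B.4.2 (-2.55, SE 0.054, adjusted p = 1.49e-22). EIF2AK2, the kinase that halts translation on binding double-stranded RNA, had its largest difference in shARID1A/B.4.2 (-0.44). Its call in shARID1B.3 was lost without Control replicate 1 or 2 or shARID1B.3 replicate 1 or 2 (adjusted p = 0.0501 to 0.203).

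STING1 (chr5:139475534-139482935, minus strand), the adaptor of the cytosolic DNA pathway, stood at 37.6, 50.4 and 52.4 in Control, 18.3, 18.5 and 15.6 in shARID1A.2, 9.71, 9.51 and 8.98 in shARID1A.4, 23.6, 25.5 and 20.4 in shARID1B.2, 14.9, 14.2 and 17.3 in shARID1B.3, 34.4, 34.4 and 23.4 in shARID1A/B.2.3, and 37.4, 40.2 and 38.4 in shARID1A/B.4.2. It was called lower in 5 conditions, most in shARID1A.4 (-2.19, SE 0.21, adjusted p = 9.84e-10) and shARID1B.3 (-1.53, SE 0.21, adjusted p = 6.94e-07), and was not called in shARID1A/B.4.2 (-0.26). Its call in shARID1A/B.2.3 (-0.60) was lost without Control replicate 2 or 3 or shARID1A/B.2.3 replicate 3 (adjusted p = 0.0509 to 0.102). IFI16 (chr1:158999968-159055155, plus strand), a nuclear and cytosolic DNA sensor, stood at 6217, 5838 and 6053 in Control, 3326, 3419 and 3409 in shARID1A.2, 4283, 4205 and 4296 in shARID1A.4, 4129, 4236 and 4109 in shARID1B.2, 4542, 4991 and 4819.9 in shARID1B.3, 5237, 5045 and 4926 in shARID1A/B.2.3, and 2471, 2332 and 2385 in shARID1A/B.4.2. All hairpin libraries lay below Control, the lowest being those of shARID1A/B.4.2 (-1.33, SE 0.032, adjusted p = 1.35e-21).

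The antiviral effectors held the largest differences. IFITM3 (chr11:319669-327537, minus strand), a membrane protein that hinders virus entry at endosomes, stood at 217, 203 and 257 in Control, 9.14, 5.15 and 6.68 in shARID1A.2, 52.4, 34.5 and 50.9 in shARID1A.4, 212, 206 and 203 in shARID1B.2, 81.6, 98.8 and 104 in shARID1B.3, 110.4, 101 and 124 in shARID1A/B.2.3, and 11.8, 7.72 and 4.68 in shARID1A/B.4.2. Its 6 libraries of shARID1A.2 and shARID1A/B.4.2 lay below all others, with log2 differences of -4.85 (SE 0.23, adjusted p = 9.5e-16) and -4.71 (SE 0.23, adjusted p = 2.28e-15), followed by shARID1A.4 (-2.29, SE 0.23, adjusted p = 2.27e-09). IFITM2 (chr11:307631-315272, plus strand), its neighbour and close homologue, stood at 159, 138 and 147 in Control, 10.8, 12.4 and 15.6 in shARID1A.2, 27.2, 26.2 and 21.96 in shARID1A.4, 111, 131 and 111 in shARID1B.2, 53.8, 65.6 and 82.9 in shARID1B.3, 43.5, 61.5 and 53.5 in shARID1A/B.2.3, and 8.2, 13.1 and 9.37 in shARID1A/B.4.2. The order was alike, with -3.75 (SE 0.20, adjusted p = 1.23e-14) in shARID1A/B.4.2 and -3.43 (SE 0.20, adjusted p = 5.58e-14) in shARID1A.2, and neither gene was called in shARID1B.2. Reads of these near-identical genes can be split between them, IFITM2 shares 22.7% of its exon bases with IFITM1, and their separate values are therefore uncertain. IFITM3 also shares 21.3% of its exon bases with a non-coding gene on the opposite strand, and whether counting used strand is not given.

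The IFIT genes, a cluster on chromosome 10 whose products bind foreign RNA ends, did not move together. IFIT1 (chr10:89392546-89406486, plus strand) stood at 21.1, 22.4 and 23.6 in Control, 105, 85.5 and 107 in shARID1A.2, 25.2, 28.5 and 24.9 in shARID1A.4, 74.4, 79.9 and 73.8 in shARID1B.2, 18.9, 13.3 and 11.2 in shARID1B.3, 41.5, 36.5 and 42.8 in shARID1A/B.2.3, and 36.4, 33.2 and 21.5 in shARID1A/B.4.2. It rose in shARID1A.2 (2.09, SE 0.20, adjusted p = 1.03e-09), shARID1B.2 (1.72, SE 0.20, adjusted p = 4.88e-08) and, less, shARID1A/B.2.3 (0.82). IFIT2 (chr10:89283694-89309276, plus strand) stood at 101, 80.6 and 105 in Control, 33.2, 39.1 and 24.5 in shARID1A.2, 185, 239 and 243 in shARID1A.4, 49.9, 57.9 and 58.7 in shARID1B.2, 50.8, 51.3 and 59.6 in shARID1B.3, 318, 265 and 281 in shARID1A/B.2.3, and 29.1, 27.04 and 29.03 in shARID1A/B.4.2. It fell in shARID1A/B.4.2 (-1.71, SE 0.16, adjusted p = 5.35e-10) and shARID1A.2 (-1.55, SE 0.16, adjusted p = 2.48e-09), and less in shARID1B.2 (-0.77) and shARID1B.3 (-0.81). It rose in shARID1A/B.2.3 (1.59, SE 0.16, adjusted p = 1.97e-09) and shARID1A.4 (1.21, SE 0.16, adjusted p = 1.86e-07).

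IFIT3 (chr10:89327894-89340971, plus strand) stood at 36.4, 25.7 and 20.5 in Control, 7.48, 7.21 and 5.57 in shARID1A.2, 16.5, 14.3 and 15.97 in shARID1A.4, 21.01, 18.5 and 15.1 in shARID1B.2, 3.98, 4.75 and 7.77 in shARID1B.3, 33.4, 53.1 and 36.97 in shARID1A/B.2.3, and 2.73, 6.95 and 7.49 in shARID1A/B.4.2. It was lowest in shARID1A/B.4.2 (-2.14, SE 0.33, adjusted p = 2.63e-06), shARID1B.3 (-2.14, SE 0.33, adjusted p = 3.4e-06) and shARID1A.2 (-1.85), whose libraries overlap. IFIT5 (chr10:89414586-89421001, plus strand), the most abundant of the 4 tested, stood at 2417, 2429.9 and 2321 in Control, 1231, 1269 and 1154 in shARID1A.2, 2278, 2363 and 2340.2 in shARID1A.4, 1693, 1691 and 1781 in shARID1B.2, 1774, 1835 and 1788 in shARID1B.3, 2573, 2773 and 2622 in shARID1A/B.2.3, and 1241, 1209.7 and 1177 in shARID1A/B.4.2. It was lowest in shARID1A/B.4.2 (-0.98) and shARID1A.2 (-0.97), while shARID1A.4 was not called (-0.038). The IFIT3 call in shARID1A.4 (-0.75) was lost without Control replicate 1 or 2 or shARID1A.4 replicate 1, 2 or 3 (adjusted p = 0.0625 to 0.189). The IFIT1 call in shARID1B.3 (-0.62) was lost without shARID1B.3 replicate 3 (adjusted p = 0.0634).

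MX1 (chr21:41420304-41459214, plus strand), a dynamin-like GTPase that traps viral ribonucleoprotein, stood at 21.1, 35.8 and 29.8 in Control, 7.48, 12.4 and 16.7 in shARID1A.2, 14.6, 9.51 and 10.98 in shARID1A.4, 32.4, 22 and 32.9 in shARID1B.2, 3.98, 6.65 and 6.91 in shARID1B.3, 12.2, 14.6 and 19.5 in shARID1A/B.2.3, and 8.2, 10.04 and 6.56 in shARID1A/B.4.2. It fell in shARID1B.3 (-2.13, SE 0.32, adjusted p = 2.59e-06), shARID1A/B.4.2 (-1.68), shARID1A.4 (-1.23) and shARID1A.2 (-1.22), and overlapped Control in shARID1B.2. MX2 (chr21:41361943-41409390, plus strand), its paralogue in the same cluster, stood at 2.35, 4.48 and 3.08 in Control, 21.6, 24.7 and 16.7 in shARID1A.2, 6.8, 9.51 and 9.98 in shARID1A.4, 14.01, 18.5 and 23.1 in shARID1B.2, 1, 2.85 and 1.73 in shARID1B.3, 6.08, 2.08 and 8.76 in shARID1A/B.2.3, and 8.2, 6.18 and 9.37 in shARID1A/B.4.2. It was higher in shARID1A.2 (2.37) and shARID1B.2 (2.19), whose libraries lay above all others, and was also called in shARID1A.4 (1.20). MX2 was near the floor in Control and passed the filter through shARID1A.2 and shARID1B.2, so that its differences from Control are a description. The call for MX1 in shARID1A/B.2.3 (-0.86) was lost without Control replicate 2 or 3 or shARID1A/B.2.3 replicate 1 (adjusted p = 0.0512 to 0.0913). That for MX2 in shARID1A/B.4.2 (1.06) was lost without Control replicate 1 or shARID1A/B.4.2 replicate 1 or 3 (adjusted p = 0.0512 to 0.078).

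BST2 (chr19:17402939-17405648, minus strand), or tetherin, which holds budding virus at the cell surface, stood at 78.7, 86.2 and 73.95 in Control, 210.2, 192 and 180.4 in shARID1A.2, 35.9, 49.9 and 47.9 in shARID1A.4, 110.3, 116 and 160.1 in shARID1B.2, 38.8, 24.7 and 56.99 in shARID1B.3, 79.99, 55.2 and 65.2 in shARID1A/B.2.3, and 129, 115 and 126 in shARID1A/B.4.2. It rose in shARID1A.2 (1.27, SE 0.21, adjusted p = 5.99e-06), shARID1B.2 (0.67) and shARID1A/B.4.2 (0.63) and fell in shARID1B.3 (-1.04, SE 0.21, adjusted p = 0.000112) and shARID1A.4 (-0.83). ISG20 (chr15:88636153-88656483, plus strand), an RNA exonuclease, stood at 18.8, 26.9 and 13.3 in Control, 17.4, 14.4 and 15.6 in shARID1A.2, 100.03, 82.05 and 103 in shARID1A.4, 21.9, 13.9 and 17.8 in shARID1B.2, 23.9, 11.4 and 19 in shARID1B.3, 117, 119.8 and 102 in shARID1A/B.2.3, and 15.5, 16.99 and 29.97 in shARID1A/B.4.2. Its 6 libraries of shARID1A.4 and shARID1A/B.2.3 lay above all 15 others, with log2 differences of 2.26 (SE 0.27, adjusted p = 6.79e-08) and 2.51 (SE 0.27, adjusted p = 1.29e-08), and it was not called in the other 4 conditions. RSAD2 (chr2:6865806-6898239, plus strand), or viperin, an iron-sulphur enzyme that makes a chain-terminating nucleotide, stood at 30.5, 15.7 and 40.1 in Control, 37.4, 35.02 and 23.4 in shARID1A.2, 13.6, 17.8 and 11.98 in shARID1A.4, 49.9, 50.9 and 60.5 in shARID1B.2, 27.9, 40.9 and 44.04 in shARID1B.3, 18.2, 22.9 and 21.4 in shARID1A/B.2.3, and 27.3, 15.4 and 22.5 in shARID1A/B.4.2. It was highest in shARID1B.2 (0.97, SE 0.29, adjusted p = 0.00468) and lowest in shARID1A.4 (-0.87, SE 0.29, adjusted p = 0.00916). The RSAD2 call in shARID1B.2 was lost without Control replicate 2 (adjusted p = 0.0612), that in shARID1A.4 without Control replicate 3 (adjusted p = 0.086). The BST2 call in shARID1B.2 was lost without shARID1B.2 replicate 3 (adjusted p = 0.0569). SAMHD1, which depletes nucleotides, ranged from -0.49 in shARID1A.2 to 0.34 in shARID1A/B.2.3.

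ISG15 (chr1:1001138-1014540, plus strand), a ubiquitin-like protein joined to newly made proteins, stood at 28.2, 30.2 and 32.9 in Control, 6.65, 4.12 and 6.68 in shARID1A.2, 22.3, 22.6 and 30.9 in shARID1A.4, 11.4, 17.4 and 24.01 in shARID1B.2, 14.9, 17.1 and 21.6 in shARID1B.3, 57.7, 64.6 and 68.1 in shARID1A/B.2.3, and 9.11, 8.5 and 5.62 in shARID1A/B.4.2. It fell in shARID1A.2 (-2.23, SE 0.27, adjusted p = 6.74e-08) and shARID1A/B.4.2 (-1.87, SE 0.27, adjusted p = 1.3e-06) and rose in shARID1A/B.2.3 (1.04, SE 0.27, adjusted p = 0.00159). USP18 (chr22:18149899-18177397, plus strand), the protease that removes ISG15 and restrains IFNAR2 signalling, stood at 36.4, 51.5 and 35.95 in Control, 50.7, 59.7 and 63.5 in shARID1A.2, 118, 122 and 142 in shARID1A.4, 67.4, 59.04 and 56.02 in shARID1B.2, 56.7, 75.1 and 68.2 in shARID1B.3, 88.1, 114 and 126 in shARID1A/B.2.3, and 35.5, 53.3 and 33.7 in shARID1A/B.4.2. It was highest in shARID1A.4 (1.62, SE 0.18, adjusted p = 1.95e-08) and shARID1A/B.2.3 (1.39, SE 0.18, adjusted p = 2.9e-07), whose libraries lay above the rest. The ISG15 call in shARID1B.2 (-0.81) was lost without shARID1B.2 replicate 1 (adjusted p = 0.0958), that in shARID1B.3 (-0.75) without Control replicate 3 or shARID1B.3 replicate 1 (adjusted p = 0.0581 to 0.0775). The USP18 call in shARID1A.2 (0.49) was lost without Control replicate 1 or 3 or shARID1A.2 replicate 3 (adjusted p = 0.0682 to 0.077).

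HERC5 (chr4:88457117-88506163, plus strand), the ligase for ISG15 in human cells, stood at 2.35, 3.36 and 5.14 in Control, 2.49, 1.03 and 2.23 in shARID1A.2, 7.77, 17.8 and 12.97 in shARID1A.4, 4.38, 10.4 and 8.89 in shARID1B.2, 10.9, 17.1 and 12.9 in shARID1B.3, 4.05, 4.17 and 0 in shARID1A/B.2.3, and 2.73, 3.86 and 0.94 in shARID1A/B.4.2. These values are close to the floor, and HERC5 passed the filter mainly through shARID1A.4 and shARID1B.3, so that its differences from Control are a description. It was called in shARID1B.3 (1.69) and shARID1A.4 (1.56). The second call was lost without Control replicate 1 or shARID1A.4 replicate 2 (adjusted p = 0.055 to 0.0653). HERC6 (chr4:88378739-88443111, plus strand), its neighbour, stood at 7.05, 10.1 and 6.16 in Control, 17.4, 11.3 and 13.4 in shARID1A.2, 18.4, 20.2 and 21.96 in shARID1A.4, 33.3, 26.6 and 15.1 in shARID1B.2, 6.97, 4.75 and 6.91 in shARID1B.3, 27.3, 32.3 and 27.2 in shARID1A/B.2.3, and 10.02, 15.4 and 8.43 in shARID1A/B.4.2. HERC6 was highest in shARID1A/B.2.3 (1.79), shARID1B.2 (1.53) and shARID1A.4 (1.30). It had few reads in Control and shARID1B.3 and passed the filter through conditions in which it was high. Its differences from Control are therefore a description. Its call in shARID1A.2 (0.79) was lost without Control replicate 1 or 3 or shARID1A.2 replicate 1 (adjusted p = 0.0558 to 0.0995). The ubiquitin ligase TRIM25, which modifies RIG-I, ranged from -0.57 in shARID1B.3 to 0.66 in shARID1A/B.2.3. TRIM21, a cytosolic antibody receptor, had log2 differences of -0.27 to -0.58.

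PARP9, DTX3L and PARP14 lie within 1 region of chromosome 3 and encode enzymes of ADP-ribosylation, with DTX3L the ubiquitin ligase partner of PARP9. PARP14 (chr3:122680618-122730840, plus strand) stood at 1125, 1110.3 and 1084 in Control, 438, 422 and 514 in shARID1A.2, 1097, 1027 and 1104 in shARID1A.4, 931, 894 and 887 in shARID1B.2, 539, 514 and 509 in shARID1B.3, 1372, 1483 and 1458 in shARID1A/B.2.3, and 316, 268 and 307 in shARID1A/B.4.2. It fell in shARID1A/B.4.2 (-1.90, SE 0.062, adjusted p = 8.97e-19), shARID1A.2 (-1.27, SE 0.062, adjusted p = 2.01e-15) and shARID1B.3 (-1.09, SE 0.062, adjusted p = 1.15e-13), less in shARID1B.2 (-0.29), and rose in shARID1A/B.2.3 (0.38). PARP9 (chr3:122527924-122564577, minus strand) stood at 516, 491 and 485 in Control, 269, 280.2 and 245 in shARID1A.2, 478, 530.4 and 479 in shARID1A.4, 374, 360.03 and 373 in shARID1B.2, 203, 223 and 220.2 in shARID1B.3, 637, 752 and 600.3 in shARID1A/B.2.3, and 239, 212 and 192 in shARID1A/B.4.2. It was likewise lowest in shARID1A/B.4.2 (-1.22), shARID1B.3 (-1.20) and shARID1A.2 (-0.91). DTX3L, which starts back to back with PARP9, was lower in shARID1A/B.2.3 as well (-0.74), where PARP9 was higher (0.41), and lowest in shARID1A/B.4.2 (-1.05).

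Among the other interferon-stimulated genes SP110 (chr2:230167293-230225729, minus strand), a nuclear body protein, stood at 147, 154 and 167 in Control, 107, 97.8 and 87.98 in shARID1A.2, 53.4, 80.9 and 67.9 in shARID1A.4, 268, 288 and 281 in shARID1B.2, 67.7, 83.6 and 72.5 in shARID1B.3, 97.2, 119.8 and 100.2 in shARID1A/B.2.3, and 53.7, 40.9 and 44.96 in shARID1A/B.4.2. It rose in shARID1B.2 (0.83, SE 0.14, adjusted p = 1.16e-05) and fell in the other 5 conditions, most in shARID1A/B.4.2 (-1.73, SE 0.14, adjusted p = 4.7e-11) and shARID1A.4 (-1.22, SE 0.14, adjusted p = 2.39e-08). An antisense gene covers 18.4% of the exon bases of SP110, and whether counting used strand is not given. IFI44 (chr1:78649796-78664078, plus strand) stood at 21.1, 19.03 and 27.7 in Control, 16.6, 10.3 and 12.2 in shARID1A.2, 4.86, 9.51 and 12.97 in shARID1A.4, 35.01, 22 and 21.3 in shARID1B.2, 6.97, 5.7 and 6.91 in shARID1B.3, 30.4, 26.1 and 25.3 in shARID1A/B.2.3, and 6.38, 9.27 and 4.68 in shARID1A/B.4.2. It was low in shARID1B.3 (-1.64, SE 0.32, adjusted p = 9.25e-05), shARID1A/B.4.2 (-1.63) and shARID1A.4 (-1.30). Its call in shARID1A.2 (-0.76) was lost without Control replicate 1 or 3 or shARID1A.2 replicate 2 or 3 (adjusted p = 0.055 to 0.135). IFI44L (chr1:78619922-78646145, plus strand), next to IFI44, stood at 7.05, 6.72 and 5.14 in Control, 13.3, 15.4 and 27.8 in shARID1A.2, 0.97, 4.76 and 2.99 in shARID1A.4, 20.1, 24.3 and 18.7 in shARID1B.2, 2.99, 1.9 and 6.04 in shARID1B.3, 8.1, 10.4 and 4.86 in shARID1A/B.2.3, and 0.91, 3.86 and 1.87 in shARID1A/B.4.2. It was high in shARID1B.2 (1.59) and shARID1A.2 (1.38). IFI44L passed the filter through these conditions and had few reads in the others, so that its differences from Control are a description. Its call in shARID1A.2 was lost without shARID1A.2 replicate 3 (adjusted p = 0.0592), that in shARID1A.4 without Control replicate 1, 2 or 3 or shARID1A.4 replicate 1 or 3 (adjusted p = 0.0518 to 0.264) and that in shARID1A/B.4.2 without shARID1A/B.4.2 replicate 1 (adjusted p = 0.0893).

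IFI6 (chr1:27666061-27672218, minus strand), a small membrane protein, stood at 83.4, 67.2 and 85.2 in Control, 106, 111 and 129 in shARID1A.2, 67.01, 73.7 and 63.9 in shARID1A.4, 80.5, 90.3 and 74.7 in shARID1B.2, 40.8, 32.3 and 41.5 in shARID1B.3, 89.1, 75.02 and 85.6 in shARID1A/B.2.3, and 58.3, 56.4 and 55.3 in shARID1A/B.4.2. It was highest in shARID1A.2 (0.55, SE 0.14, adjusted p = 0.000829) and lowest in shARID1B.3 (-1.02, SE 0.14, adjusted p = 5.1e-07), and also called lower in shARID1A/B.4.2 (-0.46). CMPK2, a mitochondrial nucleotide kinase next to RSAD2, was lowest in shARID1A.4 (-1.19) and highest in shARID1B.2 (0.53), and its call in shARID1A.2 was lost without Control replicate 1 or 3 or shARID1A.2 replicate 3 (adjusted p = 0.0561 to 0.0914). IFI27 was lower in shARID1A.4 (-0.88), shARID1B.3 (-0.86) and shARID1A/B.2.3 (-0.61), the last of which was lost without Control replicate 2 or 3 or shARID1A/B.2.3 replicate 2 (adjusted p = 0.0534 to 0.133). IFI35 ranged from -0.57 (adjusted p = 0.261) in shARID1A/B.4.2 to 0.49 (adjusted p = 0.325) in shARID1A.4.

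The other 7 members did not pass the filter on low values and were not tested. IFIH1 (MDA5), the sensor of long double-stranded RNA, had Control values of 5.603 on average, 7.89 in shARID1B.2 and 0.277 in shARID1A.2. DHX58 (LGP2) had means of 3.87 to 7.41, and CGAS, the enzyme that makes the STING ligand, had 1.34 to 7.54. OAS2, OASL, IFITM1 and XAF1 did not exceed a mean of 2.67 in any condition. Values this low give no test here.

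The question of whether hairpins with the same label gave the same result was tested directly. Between shARID1A.2 and shARID1A.4, 15 of 42 members were higher in the first and 22 lower, against 38.4% and 37.3% of all genes. 20 of them (47.6%) differed by at least 1, against 23.9%. The widest gaps among those lower in shARID1A.2 were IFIT2 (-2.76, SE 0.16, adjusted p = 3.45e-14), OAS1 (-2.56, SE 0.15, adjusted p = 1.23e-13), IFITM3 (-2.56, SE 0.23, adjusted p = 2.67e-10), ISG20 (-2.51), OAS3 (-2.48) and HERC5 (-2.22). The widest among those higher in it were IFI44L (2.41) and BST2 (2.11, SE 0.21, adjusted p = 1.66e-09). IFI44L and HERC5 had few reads and passed the filter through conditions in which they were high, so that their differences are a description.

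Between shARID1B.2 and shARID1B.3, 21 members were higher in the first and 8 lower, against 33.0% and 33.0% of all genes, and 12 (28.6%) differed by at least 1, against 13.7%. The 12 were higher in shARID1B.2, among them IFIT1 (2.34, SE 0.20, adjusted p = 1.77e-10), MX1 (2.14, SE 0.32, adjusted p = 1.95e-06) and SP110 (1.89, SE 0.14, adjusted p = 1e-11). They include MX2 (2.80) and IFI44L (2.34), which had fewer than 10 normalised reads in every library of Control and shARID1B.3 and passed the filter through the conditions in which they were high, so that their differences are a description. HERC6, also among the 12, passed the filter through conditions in which it was high, and its difference is likewise a description. With scaling to total reads the split of calls was 25 higher and 5 lower (83.3% of calls higher, against 60.8% of calls over all genes). With the deposited values 72.4% of the members' calls were higher, and calls over all genes were nearly even. The scaling to total reads thus moved both the same way. ADAR (log2 difference -0.058) and EIF2AK2 (-0.089) turned in sign with scaling to total reads, and ADAR also with upper-quartile scaling.

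Between shARID1A/B.2.3 and shARID1A/B.4.2, 29 members were higher in the first and 5 lower, against 37.1% and 37.8% of all genes. 19 members (45.2%) differed by at least 1, against 22.3%, all of them higher in shARID1A/B.2.3. IFITM3 (3.71, SE 0.23, adjusted p = 2.17e-13), IFIT2 (3.29, SE 0.16, adjusted p = 1.06e-15), ISG15 (2.90, SE 0.27, adjusted p = 6.54e-10), IFIT3 (2.71, SE 0.33, adjusted p = 5.52e-08) and ISG20 (2.44, SE 0.27, adjusted p = 1.8e-08) led. The members' median difference was 0.81, and that of all genes -0.02.

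The comparison within the shARID1A label and that within the shARID1A/B label share no library. Of 31 members called in both, 6 had the same sign and 25 (80.6%) opposite signs. Of these 25, 20 were lower in shARID1A.2 and shARID1A/B.4.2 than in the other condition of the same label, and 5 were higher. These signs compare the conditions of a label and do not give the direction against Control. Of the 11816 genes called in both comparisons 90.7% had opposite signs, a larger share than among the members. The comparison within the shARID1B label shares no library with that within shARID1A either, and 20 of 26 members called in both (76.9%) had the same sign, beside 74.9% of 10234 genes.

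Labels were also compared with both conditions of each averaged, 6 libraries a label. Between the labels shARID1A, in which ARID1A and ARID1B were low, and shARID1B, in which ARID1A was low, 11 members were higher in the first and 17 lower, against 34.6% and 32.8% of all genes. IFITM3 (-2.89, SE 0.16, adjusted p = 5.01e-14) and IFITM2 (-2.24, SE 0.14, adjusted p = 4.33e-13) had the largest differences. Between shARID1A and shARID1A/B, in which ARID1B was low, 12 were higher and 13 lower, against 30.5% and 28.7%, led by STING1 (-1.35, SE 0.15, adjusted p = 2.36e-08) and IRF7 (-1.02). Between shARID1A/B and shARID1B, 14 were higher and 13 lower, against 35.1% and 35.0%, with IFITM3 (-2.18, SE 0.16, adjusted p = 9.47e-12), IFITM2 (-1.88), HERC5 (-1.83) and ISG20 (1.40) the widest. HERC5 had few reads under the shARID1A/B label and passed the filter mainly through shARID1A.4 and shARID1B.3. Its difference is therefore a description. These contrasts average conditions that differed from each other in most members.

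The interferon genes themselves were nearly silent. Of 21 type I, II and III interferon genes 19 had 0 reads in all 21 libraries, and IFNA5 and IFNB1 had at most 1 read in any library. A count of 0 allows up to 3 reads, by counting error only, in libraries of 27954334 reads or more.

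Other genes of the pathway were counted from lists of 63 genes, of which 35 passed the filter. Against Control 31.6% to 37.9% of all genes were called higher and 32.0% to 38.2% lower, and the counts of each list with tested genes stand beside these shares. Of 7 other receptors and kinases, 3 were higher and 4 lower in shARID1A.2, 2 and 5 in shARID1A.4, 1 and 4 in shARID1B.2, 5 that were all lower in shARID1B.3, 1 and 2 in shARID1A/B.2.3, and 3 and 3 in shARID1A/B.4.2. JAK1, the kinase bound to IFNAR2, had means of 3743 in Control, 1193 in shARID1A.2, 3261 in shARID1A.4 and 1085 in shARID1A/B.4.2, with log2 differences of -1.65 (SE 0.042, adjusted p = 3.08e-21), -0.20 and -1.79 (SE 0.042, adjusted p = 9.33e-22). IFNLR1, the receptor of type III interferon, rose in shARID1A.2 (1.82), shARID1B.2 (1.94), shARID1A/B.4.2 (1.03) and shARID1A.4 (0.83).

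Of 6 other transcription factors tested, 1 was higher and 4 lower in shARID1A.2, 2 and 3 in shARID1A.4, and 2 and 3 in shARID1B.2. The counts were 1 and 3 in shARID1B.3, 3 and 3 in shARID1A/B.2.3, and 1 and 4 in shARID1A/B.4.2. Over all genes 31.6% to 37.9% were called higher and 32.0% to 38.2% lower. STAT3, the factor of cytokine signalling, had means of 3393 in Control, 542 in shARID1A.2, 5222 in shARID1A.4, 6096 in shARID1A/B.2.3 and 609 in shARID1A/B.4.2. It fell in shARID1A.2 (-2.65, SE 0.044, adjusted p = 7.48e-25) and shARID1A/B.4.2 (-2.48, SE 0.044, adjusted p = 3.66e-24) and less in shARID1B.2 (-0.55), and rose in shARID1A.4 (0.62) and shARID1A/B.2.3 (0.85). NFKB1 fell most in shARID1A.2 (-1.47) and shARID1A/B.4.2 (-1.85), and less in shARID1A/B.2.3 (-0.26) and shARID1A.4 (-0.11). IRF5 was highest in shARID1A.2 (2.50).

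Of 10 other sensors and adaptors tested, 3 were higher and 5 lower in shARID1A.2, 5 and 4 in shARID1A.4, 2 and 6 in shARID1B.2, 6 that were all lower in shARID1B.3, 5 and 2 in shARID1A/B.2.3, and 1 and 6 in shARID1A/B.4.2. Over all genes 31.6% to 37.9% were called higher and 32.0% to 38.2% lower. TLR3, the endosomal sensor of double-stranded RNA, had means of 24.9 in Control, 109 in shARID1A/B.2.3 and 0.873 in shARID1A/B.4.2, and fell in the last (-3.78, SE 0.26, adjusted p = 1.97e-12). It also fell in shARID1A.2 (-1.57) and rose in shARID1A/B.2.3 (2.09) and shARID1A.4 (1.41). RIG-I, listed as DDX58, rose in shARID1B.2 (0.75) and fell in shARID1A.4 (-0.60), shARID1B.3 (-0.45) and shARID1A/B.4.2 (-0.68). MAVS, its adaptor, was higher in shARID1A.2 (0.46) and shARID1A/B.4.2 (0.59) and lower in shARID1A.4 (-0.60), shARID1A/B.2.3 (-0.43), shARID1B.2 (-0.18) and shARID1B.3 (-0.11).

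Of 8 nucleases and RNA decay factors, 1 was higher and 6 lower in shARID1A.2, 2 and 4 in shARID1A.4, 2 and 5 in shARID1B.2, 4 and 1 in shARID1B.3, 3 and 3 in shARID1A/B.2.3, and 2 and 4 in shARID1A/B.4.2. The shares over all genes were again 31.6% to 37.9% higher and 32.0% to 38.2% lower. RNASEH2B, a subunit of the enzyme that removes RNA from RNA-DNA hybrids, fell in shARID1A/B.2.3 (-1.23), shARID1A.4 (-1.06), shARID1A.2 (-1.03), shARID1A/B.4.2 (-0.91) and shARID1B.2 (-0.44). DNASE2, the lysosomal nuclease, rose in all 6 conditions, by 0.23 to 1.08. Of the 4 feedback inhibitors, 0 were higher and 2 lower in shARID1A.2, 1 and 3 in shARID1A.4, and 1 and 0 in shARID1B.2. The counts were 1 and 1 in shARID1B.3, 0 and 2 in shARID1A/B.2.3, and 1 and 3 in shARID1A/B.4.2, beside the same shares over all genes. SOCS3 fell in shARID1A.4 (-1.99), shARID1B.3 (-1.72), shARID1A/B.4.2 (-1.63), shARID1A.2 (-0.75) and shARID1A/B.2.3 (-0.64). SOCS1 fell in shARID1A.4 (-0.71) and rose in shARID1A/B.4.2 (0.91).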

How the data were processed

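The members and gene lists were chosen with earlier results of these data known. Total RNA of SK-N-BE(2) cells was made into poly(A) libraries with a strand-preserving kit. The submitters' processing notes name STAR 2.5.3a, RSEM 1.3.0, DESeq2 1.26.0 and the GRCh38 build, and whether strand was used in counting is not given in the sources used here. The deposited values are a signal, reads per gene divided by 1 size factor per library (0.841 to 1.29). Multiplying back gave whole reads for 100% of values within 0.1 reads in every library. The authors' fold changes and p-values, held in 3 further deposited tables, were not used.

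Samples were grouped by the condition in the labels, and library columns were matched to samples by their names. Genes kept by filterByExpr (18584 of 60728) were fitted with limma (3.58.1, R 4.3.3) on log2(value + 1) over all 21 libraries, with trended variance and Benjamini-Hochberg adjustment over all genes tested; fold changes on this scale understate those of low genes. Contrasts were each condition against Control, the conditions within a label, and the mean of each label's 2 conditions. Alternatives were edgeR's quasi-likelihood test (4.0.16) with TMM and DESeq2 (1.42.0) on the recovered reads, other scalings, filters and pseudocounts (0.5 and 5), fits of the compared conditions alone, a replicate block and leaving out each library. The fit was tested on simulated data.

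Values in every library are given for members with a call of at least 1 in size on the log2 scale in 2 or more comparisons with Control or in 1 comparison within a label (30 members), and the others by ranges and largest changes. Coordinates and exon lengths are from GENCODE release 29 (GRCh38). Pairs of libraries of 1 condition differed by 1.56 to 3.99 times the variance expected from sampling (chi-square per gene), so none was counted as a duplicate. Some genes of the lists are not reported here.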

Additional observations from a re-analysis of the deposited data

Results flagged for a closer look

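Effects against Control differed, by the direct test, between the 2 conditions of a label for 37 of 42 members within shARID1A (88.1%, against 75.8% of all genes), 29 within shARID1B (69.0%, against 66.0%) and 34 within shARID1A/B (81.0%, against 74.9%). The differences given next are of members called in opposite directions against Control by the 2 conditions, which share the Control libraries, and apart by at least 1 on the log2 scale in the direct test. For shARID1A.2 minus shARID1A.4 these were ADAR (-1.44), BST2 (2.11), IFI44L (2.41), IFIT2 (-2.76), IRF9 (1.97) and STAT2 (1.70). IFI44L had few reads and passed the filter through conditions in which it was high. Its calls in shARID1A.2 and shARID1A.4 were each lost without at least 1 library, so that its difference is a description. For shARID1B.2 minus shARID1B.3 these were BST2 (1.71), IFIT1 (2.34), IRF9 (1.47) and SP110 (1.89). The BST2 call in shARID1B.2 and the IFIT1 call in shARID1B.3 were each lost without 1 library. For shARID1A/B.2.3 minus shARID1A/B.4.2 these were ADAR (1.88), IFIT2 (3.29), IFIT5 (1.13), ISG15 (2.90), OAS1 (2.23), PARP14 (2.27) and PARP9 (1.62). The libraries of a label also differed in the level of the silenced genes, with ARID1B lower in shARID1A.2 than in shARID1A.4 (log2 difference -0.47) and ARID1A lower in shARID1B.2 than in shARID1B.3 (-0.37), and ARID1B higher in shARID1A/B.2.3 than in shARID1A/B.4.2 (0.45), and its part in these differences was not tested. Conditions hold 3 libraries, too few for a check on single outlying libraries.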

How the results depend on the processing

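The number of members called kept within 1.5 times its value under all alternatives but 1. Against Control, leaving out 1 library at a time gave 33 to 37 members called in shARID1A.2, 28 to 30 in shARID1A.4, 26 to 29 in shARID1B.2, 31 to 32 in shARID1B.3, 26 to 29 in shARID1A/B.2.3 and 29 to 32 in shARID1A/B.4.2. Within labels it gave 35 to 37 for shARID1A, 25 to 29 for shARID1B and 33 to 34 for shARID1A/B, and between labels 26 to 30, 21 to 27 and 22 to 28 in the order of the report. The exception was shARID1A.4 against Control where at least 10 reads were required in every library, which tested 29 members and called 20 of them in place of 31 of 42.

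Of 189 calls of members against Control, 25 were lost without at least 1 library, each given with its libraries in the report. Fewer libraries give fewer calls by construction, and no further cause was tested.

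Scaling to total reads moved the median log2 difference of all genes from Control by 0.022 to 0.184 and upper-quartile scaling by 0.058 to 0.179, most in shARID1A.2, shARID1B.2 and shARID1A/B.4.2, so that differences of that size depend on the scaling. The difference of ADAR in shARID1B.2 reversed to 0.092 with total reads and to 0.074 with upper-quartile scaling. Among all members called and all alternatives, ADAR and EIF2AK2 in shARID1B.2 against shARID1B.3 reversed as well, EIF2AK2 to 0.019 with total reads and ADAR to 0.05 with total reads and 0.0013 with upper-quartile scaling. The replicate numbers did not pair the libraries: the correlation of deviations was above 0.1 in 2 of 63 same-numbered pairs, with a median of -0.0032. With the replicate number as a block, the members called against Control were 37, 30, 28, 33, 29 and 31 in the order of the conditions above, and the call for IFIT3 in shARID1A.4 was lost. Members near the filter, such as HERC5, HERC6, IFI44L and MX2, rest on few reads, so that depth limits their values.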
